A study of Mus musculus with 14 samples.

Results

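The regions described here are compact NKX2.2 sites at the ends of protein-coding genes in alphaTC6 cells. They were taken from the authors' deposited table of 6758 regions by place and size alone: chromosomes 1 to 19 or X, a start at 3500000 bp or beyond, under 7 windows, and a midpoint within 1000 bp of either end of a protein-coding gene in RefSeq's GRCm38.p6 annotation. The rule gave 1652 regions of the 6758, or of the 6131 that met the limits on chromosome, start and window number. No fold change or p-value entered the choice.

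alphaTC6 is an established mouse cell line with the character of islet alpha cells, which secrete glucagon, and its genotype is given as WT; a single line was used. For 48 h the cells carried either a small interfering RNA against Klf4 (3 NKX2.2 ChIP and 3 input samples) or a scrambled one (4 and 4), introduced in both arms with the same lipid reagent, RNAiMax Lipofectamine. The study's question was where on the genome NKX2.2 binding differs once Klf4 is reduced. The deposited table holds the authors' csaw comparison and no value of any single sample, so no spread between cultures can be shown, the depth behind each region is unknown, and the knockdown of Klf4, the input samples and the cell type's expression were not analysed here.

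csaw counts reads in short windows, tests each window between groups and joins neighbouring windows into regions. Each region carries the log2 fold change of 1 window that represents it, a p-value combined over its windows and a false discovery rate (FDR) over the whole table. The table does not state which group is the numerator, so a region is called listed as down where its log2 fold change is negative and listed as up where it is positive, with no translation into loss or gain upon knockdown.

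NKX2.2 is a homeodomain transcription factor needed to specify and maintain endocrine cells of the islet, and factors of its NK2 class bind a short core that reads AAGTG. KLF4 is a zinc-finger factor of the KLF family, whose members bind GC-rich and CACCC-type boxes that SP factors also use. A gene start, or promoter, is where transcription is initiated, and in mammals many promoters of broadly expressed genes lie in CpG islands, stretches rich in the CG pair. The 3' end of a gene, where the transcript terminates, usually lacks such an island.

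The promoters of the members with the smallest p-values are shown because the calls and the base composition described below can be read in them. Each sequence is RefSeq's GRCm38.p6 window of 300 bases, from 250 before an annotated start to 50 after it, 5′ to 3′ along the gene. The 6 are those with the smallest p-values among the 20 named members whose midpoint lies in such a window. Capitals mark matches on either strand to the NK2 core (AAGTG, read as CACTT on the other strand) and to the KLF/SP box (GGGNGNGG, read as CCNCNCCC on the other strand). A match is a description of letters, not a binding site.

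Trmt2a (chr16:18248633-18248932, plus strand): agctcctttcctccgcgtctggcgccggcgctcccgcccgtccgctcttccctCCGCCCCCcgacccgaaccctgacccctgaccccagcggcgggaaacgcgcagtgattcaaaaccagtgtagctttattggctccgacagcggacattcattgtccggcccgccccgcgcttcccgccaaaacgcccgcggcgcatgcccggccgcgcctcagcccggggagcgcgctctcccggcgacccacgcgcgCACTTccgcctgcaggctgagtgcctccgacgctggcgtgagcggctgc
Zfp282 (chr6:47877305-47877604, plus strand): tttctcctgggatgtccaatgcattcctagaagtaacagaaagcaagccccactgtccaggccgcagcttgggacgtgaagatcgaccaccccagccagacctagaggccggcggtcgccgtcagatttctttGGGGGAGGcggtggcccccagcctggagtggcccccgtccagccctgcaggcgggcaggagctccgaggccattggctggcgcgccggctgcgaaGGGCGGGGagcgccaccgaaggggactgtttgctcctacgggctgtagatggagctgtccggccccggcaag
Mtf2 (chr5:108065424-108065723, plus strand): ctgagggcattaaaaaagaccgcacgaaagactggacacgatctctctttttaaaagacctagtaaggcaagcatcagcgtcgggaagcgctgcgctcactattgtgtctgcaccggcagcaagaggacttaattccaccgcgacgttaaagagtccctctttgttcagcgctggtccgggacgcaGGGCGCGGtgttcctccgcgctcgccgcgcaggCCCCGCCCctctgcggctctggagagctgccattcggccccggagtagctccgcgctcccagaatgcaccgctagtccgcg
Gm38529, facing Per3 (chr4:151044603-151044902, plus strand): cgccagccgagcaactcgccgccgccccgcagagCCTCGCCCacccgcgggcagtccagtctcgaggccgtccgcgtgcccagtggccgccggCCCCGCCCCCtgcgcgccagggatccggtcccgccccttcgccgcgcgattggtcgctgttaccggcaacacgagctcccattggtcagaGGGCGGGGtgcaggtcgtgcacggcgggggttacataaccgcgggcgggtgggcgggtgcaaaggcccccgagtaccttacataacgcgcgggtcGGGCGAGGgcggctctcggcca
Trib2 (chr12:15816736-15817035, minus strand): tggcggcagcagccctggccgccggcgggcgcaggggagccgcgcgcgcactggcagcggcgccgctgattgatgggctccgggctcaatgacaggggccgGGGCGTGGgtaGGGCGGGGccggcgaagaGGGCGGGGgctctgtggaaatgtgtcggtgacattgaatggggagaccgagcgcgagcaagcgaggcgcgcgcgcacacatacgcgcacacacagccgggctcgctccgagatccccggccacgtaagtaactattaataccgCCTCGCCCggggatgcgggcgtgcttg
Cep128 (chr12:91384360-91384659, minus strand): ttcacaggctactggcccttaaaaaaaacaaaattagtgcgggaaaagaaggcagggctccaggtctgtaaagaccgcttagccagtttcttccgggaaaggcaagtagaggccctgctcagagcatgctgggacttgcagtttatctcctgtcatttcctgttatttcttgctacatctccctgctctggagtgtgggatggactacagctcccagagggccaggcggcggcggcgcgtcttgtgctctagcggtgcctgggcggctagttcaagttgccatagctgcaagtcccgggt

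The Trmt2a, Zfp282, Mtf2, Gm38529 and Trib2 windows belong to regions listed as down, and hold 42, 21, 30, 43 and 40 CG pairs. The Cep128 window belongs to a region listed as up and holds 11. Among the 5 windows of regions listed as down, each has at least 1 KLF/SP box, and Gm38529 has 5. The Cep128 window has none of either motif. These windows were chosen by p-value, so their contents illustrate and do not test the comparison over all promoters given further on.

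Of the 1652 regions, 4 reached an FDR of 0.05 or lower in the authors' deposited table, and all 4 were listed as down. That is 0.242% of these regions, beside 1.36% called over the whole table and 0.592% called as down over the whole table. The whole table also holds broader regions. Over all 6131 compact regions, these 1652 included, 45 were called (0.734%), 13 of them listed as down and 32 as up. Among the 4479 other compact regions, 41 were called, 32 of them listed as up and 9 as down. None of the 1652 was called as up, beside 52 of 6758 over the whole table.

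The smallest FDR belonged to the shared promoter of Ranbp1, which encodes a binding partner of the nuclear transport GTPase Ran, and Trmt2a, a tRNA methyltransferase. The region lies on chromosome 16 from 18248751 to 18248960, at divergent starts. Its midpoint falls inside gene bounds, 8.5 bp from the nearer start. The authors' deposited table listed its log2 fold change as -0.97 (p = 9.64e-06, FDR = 0.00297), and all 5 of its 5 windows were listed as down. It was the only one of the 4 that kept an FDR under 0.05 when the adjustment ran over compact regions alone (0.00985).

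The region at Slc18a1, which encodes the vesicular monoamine transporter VMAT1, lies on chromosome 8 from 69090001 to 69090060, inside the gene and 792.5 bp from an end whose strand was not stated. In the authors' deposited table it was listed at -1.21 (log2 fold change) with an FDR of 0.0182. Over compact regions alone its FDR was 0.0612.

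The region at Zfp282, a zinc-finger transcription factor gene, lies on chromosome 6 from 47877451 to 47877660. Its midpoint falls 0.5 bp from an annotated start. The authors' deposited table listed its log2 fold change at -1.26, which no other of the 1652 regions went below, with an FDR of 0.0416 that became 0.0819 over compact regions alone.

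The region at Mtf2, a Polycomb-like accessory subunit of the complex that methylates histone H3 at lysine 27, lies on chromosome 5 from 108065551 to 108065710, upstream of the start. The authors' deposited table listed it at -1.03 with an FDR of 0.0487. With the deposited values of each region's best window, the window with the smallest p-value, the FDR was 0.0515. The csaw p-value deposited for Mtf2 was the same either way (0.000655). The FDR thus moved through the adjustment over all regions, and the call lies close to the threshold.

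The next members listed as down did not pass the threshold. They lie at starts of Per3, a circadian clock gene that faces Gm38529 (log2 fold change -0.74, FDR = 0.0941 in the authors' deposited table), and of Trib2, a pseudokinase gene (-0.88, FDR = 0.104). Opa1, the GTPase that fuses the inner mitochondrial membrane, was listed at -0.98 and Pum2, an RNA-binding translational repressor, at -1.06 in the authors' deposited table, with FDR values of 0.117 and 0.131. The divergent promoters of Kntc1 with Rsrc2 and of Moap1 with Tmem251 completed the 10 smallest p-values on this side, at -0.82 and -0.94, with FDR values of 0.137 and 0.139 in the authors' deposited table. Kntc1 encodes a kinetochore protein and Moap1 a modulator of apoptosis. All 10 lie at gene starts or, for Slc18a1, at an end of unstated strand.

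The members listed as up with the smallest p-values did not pass either. Pak6, a p21-activated kinase gene, had a log2 fold change of 0.78 at its start, and the 3' end of Asrgl1, an asparaginase-like gene, had 1.15, each with an FDR of 0.0722 in the authors' deposited table. Cavin2, a caveolar coat gene, stood at 1.18 (FDR = 0.0745), the highest of all 1652 regions in the authors' deposited table, and Cep128, a centriole gene, at 0.88 (FDR = 0.0959). Eci1, an enzyme of unsaturated fatty acid oxidation whose start lies near an end of Rnps1, had 0.97 and Msh5, a meiotic recombination gene, 0.64 in the authors' deposited table, with FDR values of 0.144 and 0.180. The remaining 4 lie at Adam8 with Spef1l (0.53), Dynlt1a (0.61), Pcsk1n (0.90) and Ccn3 (0.93), with FDR values from 0.135 to 0.189 in the authors' deposited table.

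Below the level of calls, the population as a whole lay lower than other compact regions. The median log2 fold change of the 1652 regions was -0.05 (quartiles -0.33 and 0.16), beside 0.10 (-0.10 and 0.38) in the 4479 other compact regions and 0.04 over the whole table. Read from the window with the smallest p-value of each region (the best window), the medians were -0.16, 0.21 and 0.15. Negative values were listed for 968 of the 1652, or 58.6%, against 37.1% of the other compact regions. The distance between quartiles was 0.49 and 0.48. The histogram of fold changes shows that both groups peak near 0, with the broader shoulder on the negative side at gene ends and on the positive side elsewhere. No test is attached to this difference, because regions of 1 comparison are not replicates.

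**Figure D1:**
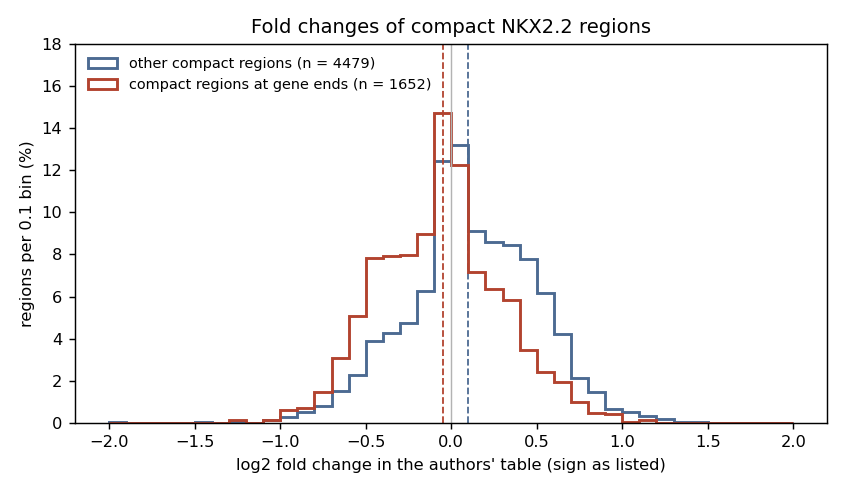
Histogram of the log2 fold change (x axis, sign as the authors' table lists it) in bins of 0.1, as the percentage of regions in each group (y axis), for 1652 compact regions at gene ends and 4479 other compact regions, with dashed lines at the medians. Both groups peak near 0, the gene-end regions with the broader shoulder to the left and the others to the right, and the medians are -0.05 and 0.10.

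The difference held at every region size and on every chromosome. Medians of members with 1 to 6 windows were -0.08, -0.02, -0.08, -0.05, -0.02 and -0.10, and those of other compact regions 0.12, 0.06, 0.06, 0.12, 0.16 and 0.17. On 20 of 20 chromosomes the median of the members was lower than that of the other compact regions, and on 19 it was below 0.

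Nominal differences, with an unadjusted p-value under 0.05, numbered 118 among the 1652 regions, or 7.14%, beside 11.2% over the whole table. Of the 118, 72 were listed as down and 46 as up. The share listed as down was 4.36%, beside 3.68% over the whole table, and the share listed as up was 2.78%, beside 7.55%. Among other compact regions 101 such regions were listed as down and 387 as up, or 2.25% and 8.64%. Relative to the whole table, gene ends thus held a smaller share of nominal differences listed as up and a slightly larger share listed as down.

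RefSeq's promoter windows gave a strand for 17491 of 21896 protein-coding genes, 79.9%, which allowed starts to be separated from 3' ends. The windows used do not cover the genome evenly. Chromosome 18, with 35 of the 1652 regions, had none, so its regions are all in the unstated class. The Ccn3 region on chromosome 15 lay 2510955.5 bp from the nearest start of a window. Of the 1652 regions, 1259 lay at a start only, 86 at a 3' end only, 51 at a start and a 3' end of different genes or of a short gene, and 256 at ends of genes without a stated strand. A start here is the outer bound of the gene, and 46 of the 1259 lay over 1000 bp from every start in the promoter table. The median log2 fold change was -0.05 at starts, where 742 of 1259 values were negative (58.9%), and 0.01 at 3' ends, where 40 of 86 were negative (46.5%). The mixed class stood at -0.03 and the unstated class at -0.07. Nominal p-values under 0.05 at starts were listed as down in 61 regions (4.85%) and as up in 32 (2.54%). These shares lay near the 4.36% and 2.78% of all 1652 regions. At 3' ends 1 was listed as down (1.16%) and 6 as up (6.98%), beside 3.68% and 7.55% of all 6758 regions. The share listed as up at 3' ends was thus close to that of all 6758 regions, and it rests on 6 regions.

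The difference between starts and 3' ends has a limit. By best windows the median was -0.17 at starts and -0.07 at 3' ends, so the sign at 3' ends depends on which window stands for the region. Inside gene bounds, 16 of 43 regions at 3' ends were negative, and beyond the 3' end 24 of 43 were.

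**Figure D2:**
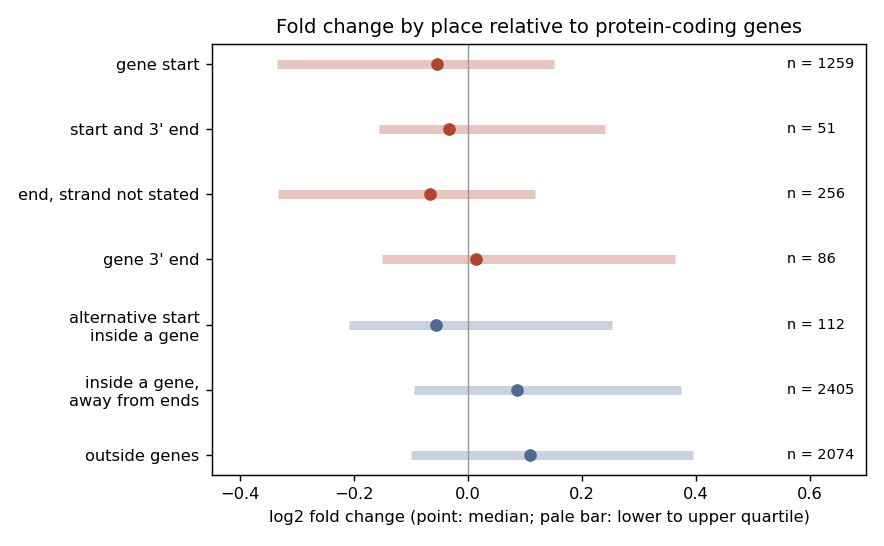
Median log2 fold change (x axis) of compact regions by place relative to protein-coding genes (rows), with bars from lower to upper quartile. The medians of 1259 starts and of 112 regions at alternative starts inside genes are -0.05 and -0.06, with quartiles on both sides of 0, while the 2405 regions inside genes away from their ends and the 2074 outside genes have medians of 0.09 and 0.11.

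Regions at alternative starts offered a comparison that the rule had not used. Among the 4479 other compact regions, 112 had a midpoint in a promoter window of an alternative RefSeq start, all of them inside a gene and farther than 1000 bp from its ends. Their median log2 fold change was -0.06 and 63 of the 112 were negative (56.2%), close to the -0.05 and 59.0% of the 916 members in a promoter window. The 4367 other compact regions outside promoter windows had a median of 0.10 and 36.6% negative values. They include the 138 on chromosome 18, where no promoter window was available. By best windows the 3 medians were -0.06, -0.17 and 0.21.

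Relative to the nearest annotated start, the members lay mostly just upstream. Of the 1263 within 1000 bp of a start in the promoter table, 933 (73.9%) had their midpoint upstream, and the median position was -52.5 bp (quartiles -142 and 2.5 bp). The 511 regions from -100 to 0 bp had a median log2 fold change of -0.05, the 260 from -250 to -100 bp of -0.06 and the 190 from 0 to 100 bp of -0.06. The 41 regions from 500 to 1000 bp downstream had a median of 0.01.

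**Figure D3:**
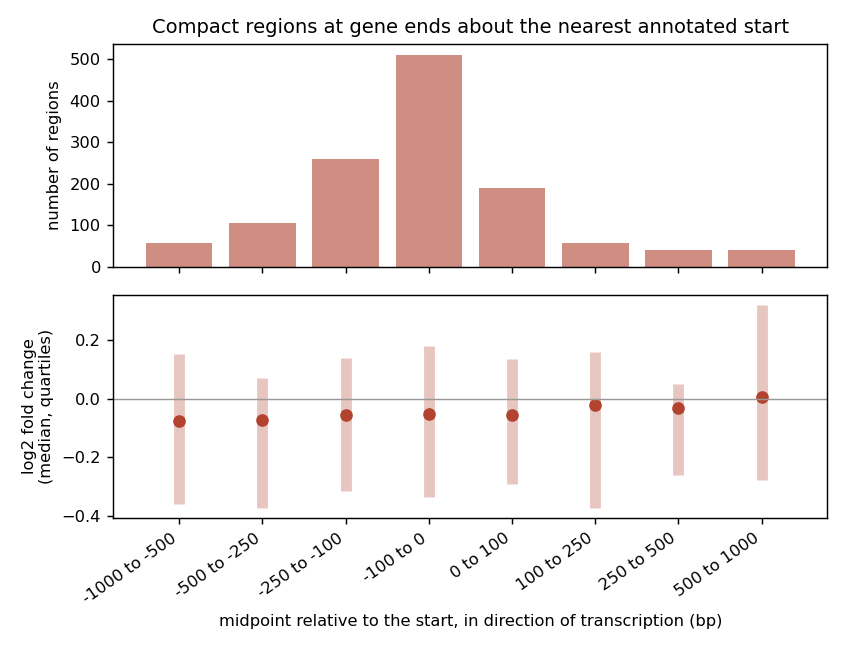
Number of compact gene-end regions (upper panel) and their median log2 fold change with quartiles (lower panel) by position of the midpoint relative to the nearest annotated start, in bp along the direction of transcription (x axis, bins of unequal width). The bin from -100 to 0 bp holds 511 regions, and medians are negative from -1000 to 500 bp and 0.01 beyond.

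With distance from either gene end, the median was -0.06 within 100 bp (843 regions, 59.5% negative), -0.02 at 100 to 250 bp (374 regions, 55.6%), -0.04 at 250 to 500 bp (208 regions, 61.1%), -0.06 at 500 to 1000 bp (227 regions, 57.7%), 0.04 at 1000 to 3000 bp (466 regions) and 0.10 beyond 10000 bp (3192 regions). At the limit itself there was no step: the 81 regions between 800 and 1000 bp had a median of 0.01 and the 65 between 1000 and 1200 bp of -0.01. The 74 members with 6 windows had a median of -0.10, and the 64 regions at gene ends with 7 windows, just outside the limit, of -0.02. At gene ends, 3 compact regions started before 3500000 bp, at -0.42 to 0.18.

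Divergent promoters, where starts on opposite strands lie within 1000 bp of 1 midpoint, held 200 of the regions. Their median log2 fold change was -0.03 with 114 negative, and that of the 1061 other regions at a start only, not divergent, was -0.06 with 630 negative. Nominal p-values under 0.05 at divergent promoters were listed as down in 12 regions and as up in 2, or 6.0% and 1.0%. In either direction they made up 7.0% of regions there, 7.45% at the other starts and 7.14% over all 1652. The shares listed as down and as up were 4.62% and 2.83% at the other starts, and 4.36% and 2.78% over all 1652. In all, 326 regions lay near ends of 2 genes or more.

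Members in promoters with more CG pairs had lower fold changes. The 916 members in a promoter window, 1 per window, were divided into 5 ranges of similar size by the number of CG pairs among its 300 bases. From the lowest range (1 to 15 pairs, 195 regions) to the highest (30 to 56 pairs, 168 regions) the median log2 fold change was 0.02, -0.02, -0.07, -0.09 and -0.19, and the share of negative values 48.2%, 52.3%, 63.8%, 62.4% and 70.2%. Unadjusted p-values under 0.05 occurred in 14 of the 168 regions of the highest range, all listed as down. In the lowest range they occurred in 18 of 195, with 6 listed as down. Over all 916 the share was 7.31%, with 5.24% listed as down and 2.07% as up, beside 11.2% over the whole table in either direction. By best windows the 5 medians were -0.01, -0.03, -0.20, -0.22 and -0.27.

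Across the 916 regions Spearman's rho between CG pairs and log2 fold change was -0.19 (Pearson's r -0.19), and for percent GC it was -0.15. The points share 1 comparison with its libraries and depth. Within regions of equal window number rho ran from -0.34 for 3 windows (239 regions) to 0.003 for 6 windows (40 regions). At the 112 alternative starts rho was -0.14. These are descriptions across regions, which are not replicates.

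**Figure D4:**
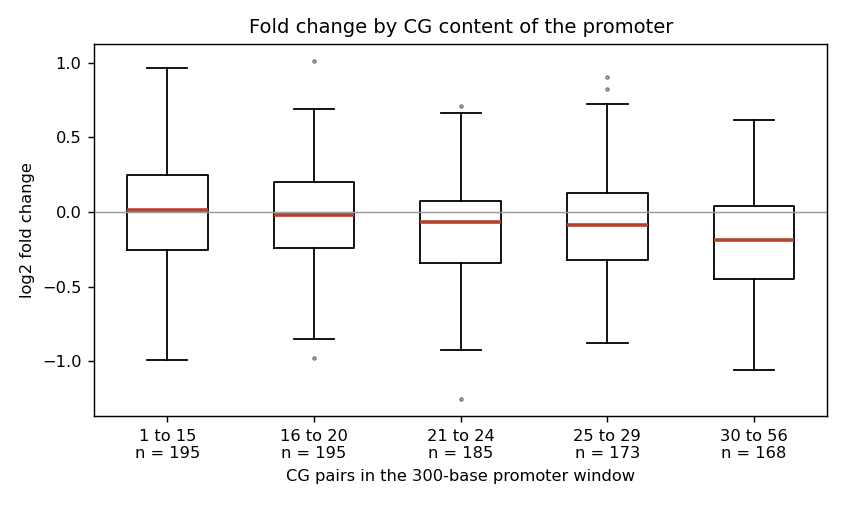
Box plots of log2 fold change (y axis) for the 916 compact gene-end regions in a promoter window, in 5 ranges of CG pairs in the 300-base window (x axis), with medians in red, boxes from lower to upper quartile, whiskers to 1.5 times the box height and dots beyond. The median is 0.02 at 1 to 15 pairs and -0.19 at 30 to 56.

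Promoters with a member were richer in CG than promoters at large. Their windows held a median of 22 CG pairs (quartiles 17 and 28), beside 13 (4 and 24) in all 21262 windows of protein-coding genes, and 60.5% GC beside 56.3%.

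Short motifs were searched in these windows on both strands. The NK2 core AAGTG was present in 435 of 916 member windows (47.5%), in 45.2% of protein-coding windows and in 46.4% of all 32851 windows of the table. Its longer form TNAAGTG, which contains it, was present in 8.62% of member windows and 10.8% of protein-coding ones. The KLF/SP box GGGNGNGG was present in 65.3% and 56.6%, and GGGTGTGG, 1 form of that box, in 3.60% and 3.63%. The ETS core CCGGAA, bound by a family of factors common at housekeeping promoters, was present in 44.8% of member windows and 18.7% of protein-coding ones, and in 37.5% of the 112 windows at alternative starts, so a high share was not particular to gene ends. The CCAAT box CCAAT was present in 46.6% and 38.2%, the NRF1 core GCATGCG in 8.62% and 4.44%, and the YY1 core AAGATGG in 10.3% and 6.24%. At the alternative starts CCAAT was present in 43.8% and GGGNGNGG in 62.5%.

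Since member promoters were rich in CG, the shares were also read within the 5 ranges of CG content. CCGGAA was present in 44.6% of member windows with 1 to 15 CG pairs and in 9.76% of protein-coding windows in that range. With 30 to 56 pairs it was present in 40.5% and 27.7%. CG content was not matched within a range, and CCGGAA itself holds a CG pair. The lowest range took in 10760 of the 21262 protein-coding windows, whose lower quartile was 4 pairs, beside 17 in member windows. AAGTG was more frequent in member windows in each of the 5 ranges, by 59.5% to 51.8% in the lowest and 34.5% to 27.8% in the highest. GGGNGNGG was less frequent in member windows in the 4 upper ranges, as in the highest with 80.4% and 85.4%.

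Near the midpoint itself, in the 101 bases centred on it, 733 members could be read. AAGTG lay there in 23.9%, beside 18.2% of protein-coding windows at the same places, CCGGAA in 27.0% beside 8.05%, and GGGNGNGG in 34.4% beside 32.6%. The median fold change with and without a motif differed most for GGGTGTGG among the 8 motifs searched. Members with AAGTG in the window had a median of -0.01 and those without it of -0.10, with median CG pairs of 20 and 23. Those with and without GGGNGNGG had medians of -0.05 and -0.06. The 33 members with GGGTGTGG had a median of -0.25 and the 883 without it of -0.05, and those with and without CCAAT had -0.02 and -0.09.

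Members lay at ends of 1944 protein-coding genes, 8.88% of all. In 18 lists of genes, the share with a member was 30.3% of splicing genes, 28.2% of mitochondrial ribosome genes, 28.0% of cytosolic ribosome genes, 27.1% of respiratory chain genes and 25.7% of tRNA synthetase genes, and 6.43% of solute carrier genes. Only 2 of the 4 calls lay at a gene of a list, Zfp282 and Slc18a1. The other lists had no region at an FDR of 0.05, and their regions are given by values.

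In the respiratory chain list, the 26 regions had their median at -0.12, and 16 were negative, beside -0.05 and 58.6% over all 1652. Unadjusted p-values under 0.05 occurred at 4, all of them listed as down, beside 4.36% listed as down at that level over all 1652. The solute carrier list likewise had 4, all listed as down. Those of the respiratory chain lie at the starts of Ndufa5 and Ndufa12, subunits of complex I. They also lie at the starts of Ndufaf5, an assembly factor of that complex, and of Atp5g2, a subunit of ATP synthase. In this order, the 4 respiratory chain regions had log2 fold changes of -0.61, -0.66, -0.67 and -0.51 in the authors' deposited table. Their FDR values were 0.164, 0.385, 0.378 and 0.369.

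The 22 regions at mitochondrial ribosome genes had a median of -0.09, with 13 negative and 9 positive. Mrps36 stood at -0.77, Mrpl32 at -0.76 and, on the positive side, Mrpl44 at 0.79 in the authors' deposited table (FDR = 0.215, 0.277 and 0.490). The Mrpl32 region is also that of Psma2, a proteasome subunit gene with a neighbouring start. The 25 regions at cytosolic ribosome genes had a median of -0.02, and Rps26, at 0.87 (FDR = 0.335) in the authors' deposited table, was the only region among them with an unadjusted p-value under 0.05. Among the 24 regions at splicing genes the median was -0.06. Sf3b1, a core subunit of the branch-site complex, was listed at 0.81 and Snrnp70 at -0.64 in the authors' deposited table (FDR = 0.221 and 0.438).

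Zinc-finger ZFP and ZBTB genes had 54 regions with a median of -0.01, 31 of them negative. Besides Zfp282, unadjusted p-values under 0.05 were listed for Zfp91 (-0.70), Zscan12 (-0.70) and Zbtb43 (0.82), with FDR values from 0.360 to 0.414 in the authors' deposited table. With Zfp282 these were 4 of the 54 regions, beside a share of 7.14% at that level over all 1652. A list of small GTPase genes, matched by symbol prefix, had a median of -0.30 over 21 regions with 13 negative. It takes in 5 regions at genes of interactors or regulators, such as Arl6ip1 and Rab3gap2, and without these the median was -0.25 over 16 regions with 9 negative. Among them were Arl5c at -0.98, Arl4d at -0.67 and Rab36 at 0.87 in the authors' deposited table, with FDR values of 0.249, 0.311 and 0.262. Chromatin regulators had 17 regions with a median of -0.01 and none with an unadjusted p-value under 0.05.

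The 8 regions at secretory granule and exocytosis genes had a median of 0.17, with 6 positive values and 2 negative. Pcsk1n encodes proSAAS, an inhibitor of prohormone convertase 1, and Ptprn encodes IA-2, a membrane protein of dense-core granules. Their starts had log2 fold changes of 0.90 and 0.76 in the authors' deposited table, with FDR values of 0.180 and 0.348. Syt7, a calcium sensor of exocytosis, had -0.65 at an end of unstated strand (FDR = 0.530 in the authors' deposited table).

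The solute carrier list had 27 regions with a median of -0.03. It includes the regions at Slc9a3r1 and Slc4a1ap, genes that share only the prefix, and these were kept. Besides Slc18a1, unadjusted p-values under 0.05 were listed for the zinc transporter gene Slc39a1 at its 3' end (-0.94, FDR = 0.164 in the authors' deposited table) and for the mitochondrial carrier genes Slc25a32 (-0.72) and Slc25a16 (-0.73), all of them down. Chaperone genes had 16 regions with a median of 0.01, 8 on either side of 0, and 2 with an unadjusted p-value under 0.05, Dnajb5 at 0.71 and Dnajc17 at 0.87 in the authors' deposited table. Among 12 regions at cell cycle genes, with a median of 0.00, the only such region was that of Mcm3, a subunit of the replicative helicase, at 0.95 in the authors' deposited table. Over all 1652 regions the share with such a p-value was 7.14%, with 4.36% listed as down and 2.78% as up.

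The 11 regions at proteasome genes had a median of 0.08, with 1 region listed as down and 1 as up at an unadjusted p-value under 0.05. Over all 1652 the shares at that level were 4.36% and 2.78%. The list includes Psmc3ip, which is no proteasome gene, and without it the median was 0.11 over 10 regions. Psme3ip1, which likewise shares only the prefix, was kept among these 10. The 12 regions of the translation factor list had a median of -0.07, but 3 of them lie at methyltransferase genes that share the prefix, such as Eef1akmt2, and the 9 others had a median of 0.08 with 4 negative. The 9 regions at tRNA synthetase genes had a median of -0.07 and the 8 at histone genes of 0.02. None of these 3 lists had a region with an unadjusted p-value under 0.05.

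Among 20 genes of alpha-cell identity, 4 had a compact region at an end. Nkx2-2 itself had -0.44 (chromosome 2 from 147195201 to 147195460, p = 0.139) in the authors' deposited table, at its outermost annotated start. Relative to the start in the promoter table, that region lies at -8928.5 bp. Irx1, an alpha-cell homeobox gene, had -0.53 (p = 0.0752) and Klf4 -0.08 (chromosome 4 from 55532951 to 55532960, p = 0.800) in the authors' deposited table. Of 17 genes of other islet cells, only Mafa, a beta-cell activator, had such a region, at 0.73 (p = 0.0262, FDR = 0.335 in the authors' deposited table). Among KLF and SP genes 6 regions ran from -0.30 at Sp1 to 0.51 at Klf13, and none had an unadjusted p-value under 0.05.

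**Figure D5:**
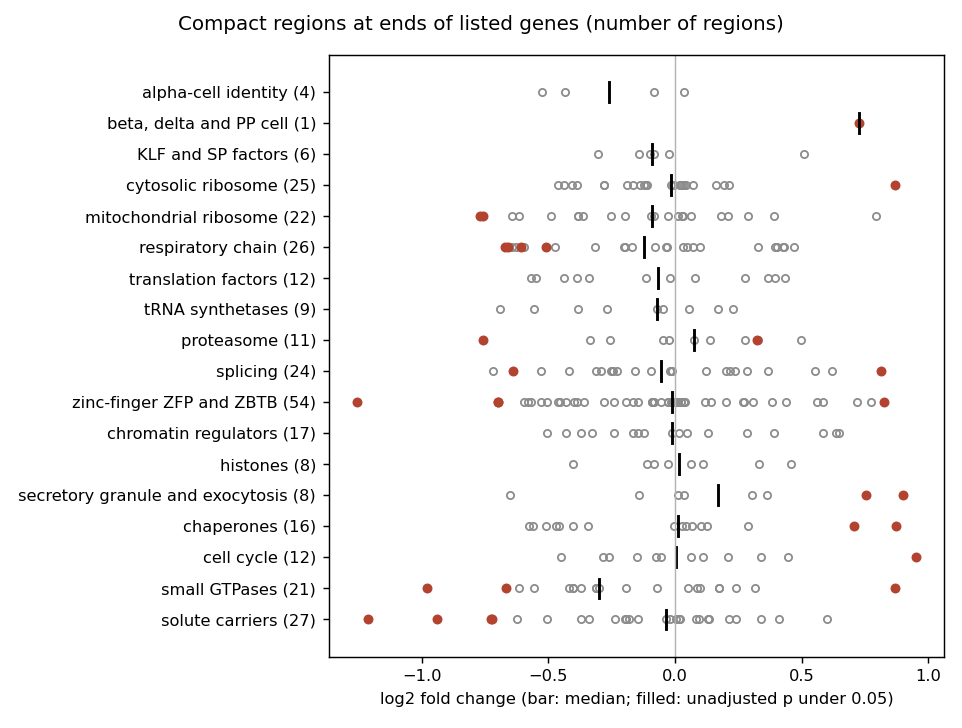
Log2 fold change (x axis) of each compact gene-end region at a gene of the 18 lists (rows, with the number of regions), filled where the unadjusted p-value was under 0.05, with a bar at the median. Filled points of the respiratory chain all lie below -0.50, and those of the secretory granule list lie above 0.70.

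For 38 genes there were 2 regions each, and no gene had more. Both values were negative for 9 of these genes, both positive for 7 and of opposite sign for the remaining 22. At Rnps1 the values listed by the authors' deposited table were 0.97 and -0.11, at Dnaic1, a ciliary dynein gene, -0.82 and -0.12, at Ccdc184 0.45 and 0.39, and at Slc25a16, a mitochondrial carrier gene, -0.73 and -0.14.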

How the data were processed

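The authors compared NKX2.2 ChIP-seq between 3 samples with Klf4 siRNA and 4 with scrambled siRNA by csaw, per the series' design text, which calls the replicates biological. FastQC, Bowtie2, MACS2 and build mm10 are named in the submitters' processing notes, without roles. The p-values and FDR values were deposited by the authors. So were, as deposited, the log2 values of fold change. Their normalization, the window filter, the covariates and the direction of the contrast are not given in the sources used here. The window numbers, positions and other fields are as deposited.

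From the table were computed the membership of each region, medians, quartiles, shares and motif matches. The deposited FDR equals a Benjamini-Hochberg adjustment over all 6758 regions. Gene bounds, strand and promoter windows came from RefSeq GRCm38.p6. Overlapping windows of opposite strands held the same bases in 533 of 533 pairs. No test on counts was made, since the table has no values per sample. Nothing beyond the authors' p-values was tested.

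The members, lists and rules were chosen with earlier results of these data known. Named are the members at an FDR of 0.05, the 10 smallest p-values in each direction, up to 4 members of each list, and examples of genes with 2 members. The value of 1 member of a list is not reported here. Alternatives varied the FDR threshold, distance, window number, window choice, gene set and chromosomes. The functions were tested on simulated data. Computation used pandas 2.3.3 and numpy 2.4.6 under Python 3.11.15, with matplotlib 3.10.9 for the plots and scipy 1.17.1.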

Additional observations from a re-analysis of the deposited data

How the results depend on the processing

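No paired analysis was possible because the comparison analysed is given without sample values or replicate numbers; leaving out replicates, other normalizations and count filters were not run for the same reason. The 4 calls became 1 at an FDR of 0.01 and 9 at 0.1, 1 when adjusted over compact regions, 9 with a 3000 bp limit (2118 regions) and 7 with any number of windows (1779 regions). With best windows, a 500 bp limit, 2 to 6 windows or the nearest edge there were 3 to 4. The median log2 fold change of -0.05 was -0.16 with best windows, -0.023 with the 3000 bp limit and -0.028 with all genes of the annotation (1978 regions), and between -0.06 and -0.04 without each of the 20 chromosomes in turn. Of the 4 alternatives added after the data were seen, leaving out promoter windows with over 24 CG pairs gave -0.03. The share of negative values, 58.6%, was 54.9% at 3000 bp and 55.9% with all genes. The median at starts was -0.17 with best windows, and that at 3' ends reversed from 0.013 to -0.068; the causes were not tested. Starts of the promoter table gave -0.05, and counting each window once left the AAGTG share at 47.5%, since no window held 2 members. Without genes that share only the symbol prefix, list medians were -0.25 (small GTPases) and 0.08 (translation factors, from -0.07). That of the proteasome list was 0.11 without Psmc3ip alone. Since depth is unknown, the smallest detectable difference is unknown too.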
